A study of Mus musculus with 8 samples.

Results

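The genes described here are 9 genes of group 2 innate lymphoid cells (ILC2), 8 that serve to make or sense lipid mediators or to store lipid and the arginase gene Arg1: Ptgdr2, Hpgds, Cysltr1, Alox5, Ptgir, Ptger4, Ptgs2, Dgat2 and Arg1. They were taken by symbol, through Ensembl gene IDs, from a deposited count table of 50686 genes, and 9 of 9 were found. ILC2 are lymphocytes without antigen receptors that release type 2 cytokines. The RNA came from ILC2 of the thymus of plck-Id1 mice on a C57BL/6 background, in which the proximal Lck promoter drives Id1, an inhibitor of the E protein transcription factors. The cells were transduced with the MIGR1 retrovirus, sorted on GFP and grown with IL-33, IL-25, IL-7 and an item the labels write as "ILC2". There were 4 groups of 2 libraries each: cells with E47-ER and GFP at 16 h, cells with GFP alone at 16 h, cells with E47-ER and GFP at 4 h, and cells with GFP alone at 4 h. E47-ER joins the E protein E47 to an oestrogen receptor part that responds to 4-hydroxytamoxifen, and the hours count exposure to that drug. Every group carried the Id1 transgene and received the drug, and E47-ER cells without the drug were not analysed here. Whether replicates stem from separate mice or cultures is not in the labels. Every p-value below therefore weighs a difference against the spread between these libraries, and that spread may be technical only.

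Prostanoids and leukotrienes are both made from arachidonic acid. The cyclooxygenases, among them COX-2 from Ptgs2, lead to prostaglandin H2, which Hpgds (haematopoietic prostaglandin D synthase) turns into prostaglandin D2, and 5-lipoxygenase from Alox5 opens the way to the leukotrienes. ILC2 are known to respond to prostaglandin D2 through CRTH2 (Ptgdr2) and to cysteinyl leukotrienes through the receptor encoded by Cysltr1, while the prostacyclin receptor (Ptgir) and the EP4 receptor for prostaglandin E2 (Ptger4) signal through cyclic AMP. Dgat2 carries out the last step of triglyceride synthesis, and Arg1 breaks down arginine in ILC2.

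Total counts ran between 8813782 and 18677675 a library. GFP 16 h replicate 2 stood apart: it had the lowest total, a TMM scaling factor of 0.854 against 1.01 to 1.03 in the other 7, and a mean correlation with the others of 0.954 against 0.980 to 0.983. Its log2 level against the other GFP libraries had a median of 0.43 over the genes with the shortest transcripts and -0.28 over the longest. Values or calls at 16 h that change without either GFP 16 h library are given beside the members and the pathway lists. Of 11 ILC2 markers, a list without the member Ptgdr2 (31 counts over the 8 libraries), 11 were above 1 CPM (counts scaled to library size). The 11 markers summed to 19040 to 19470 CPM in E47-ER cells and 24190 to 30220 CPM in GFP cells at 16 h. At 4 h they summed to 21090 to 21480 in E47-ER cells and 24500 to 26670 in GFP cells. The markers did not all move the same way: 3 of the 11 had a positive log2 difference at 16 h and 4 at 4 h. Rora had 154 ± 4.57 CPM in E47-ER cells and 76.9 ± 2.31 CPM in GFP cells at 16 h (SD, n = 2 each). It was called higher by edgeR's quasi-likelihood test (adjusted p = 0.0139), the only 1 of the 11 called. Its log2 difference ranged from 0.97 to 1.06 with 1 library left out. With a term for replicate number within each time, its adjusted p was 0.0662. DESeq2 called Il17rb and Rora higher at 16 h and Areg, Il13, Il2ra and Il5 lower, and it called 7.72% of all genes. The list's median log2 difference was -0.43 at 16 h and -0.30 at 4 h.

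Scaled to transcript length, the 9 genes spanned the range from among the highest to among the lowest of the tested genes. Cysltr1 had the highest level, with a mean of 70.1 CPM per kilobase over the 8 libraries and a range of 56.3 to 80.1, at percentile 94.5 of the genes tested. Ptgir followed with 45.2 CPM per kilobase (40.3 to 49.1, percentile 91.2) and Hpgds with 13.4 (9.42 to 17.04, percentile 73.2). These were receptors for cysteinyl leukotrienes and prostacyclin and the synthase of prostaglandin D2. Ptger4 had 7.14 CPM per kilobase (5.70 to 9.11), Dgat2 had 3.62 (2.09 to 6.66) and Alox5 had 3.14 (1.81 to 5.40). Arg1 had 1.18 CPM per kilobase (0.746 to 1.79, percentile 23.9), Ptgs2 had 0.217 (0.126 to 0.352) and Ptgdr2 had 0.0906 (0 to 0.169). Neighbours in this order overlapped in range for Ptger4 and Dgat2, for Dgat2 and Alox5, and for Ptgs2 and Ptgdr2. The other neighbours did not overlap in range.

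**Figure D1:**
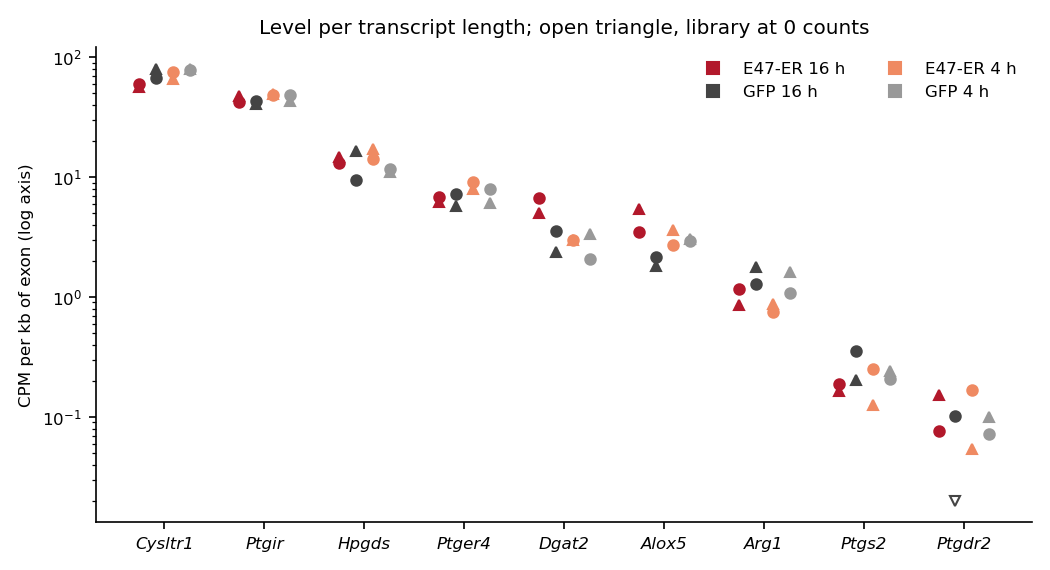
Length-scaled level (CPM per kilobase of transcript, log axis) of the 9 genes in the 8 libraries, ordered by mean. Cysltr1 and Ptgir lie highest, at 56.3 to 80.1 and 40.3 to 49.1, and Ptgs2 and Ptgdr2 lie lowest.

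No member passed the test in any comparison. Of the 9 genes, 8 passed the filter on low counts and were tested, all but Ptgdr2, among 13644 genes in all. For E47-ER against GFP at 16 h, edgeR's quasi-likelihood test called 0 of the 8 at an adjusted p under 0.05, where it called 1.59% of all genes tested. Without adjustment 3 of the 8 (Alox5, Dgat2 and Cysltr1) had a p under 0.05, against 24% of all genes, and DESeq2 called 2 of the 8 (Alox5 and Dgat2), against 7.72% of all genes. At 4 h edgeR called 0 of 8, against 0.286% of all genes, with 0 of 8 at an unadjusted p under 0.05 (5.82% of all genes) and 0 of 8 by DESeq2 (0.887%). At 16 h the groups did not overlap for 5 of the 8 members, against 54.3% of all genes tested, and at 4 h for 5 of the 8, against 45.3%. With 8 genes tested, such counts describe the members and do not set them apart from other genes. Both comparisons rest on 2 libraries a group, and RNA from bulk cells cannot tell fewer cells of a type apart from less RNA per cell.

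**Figure D2:**
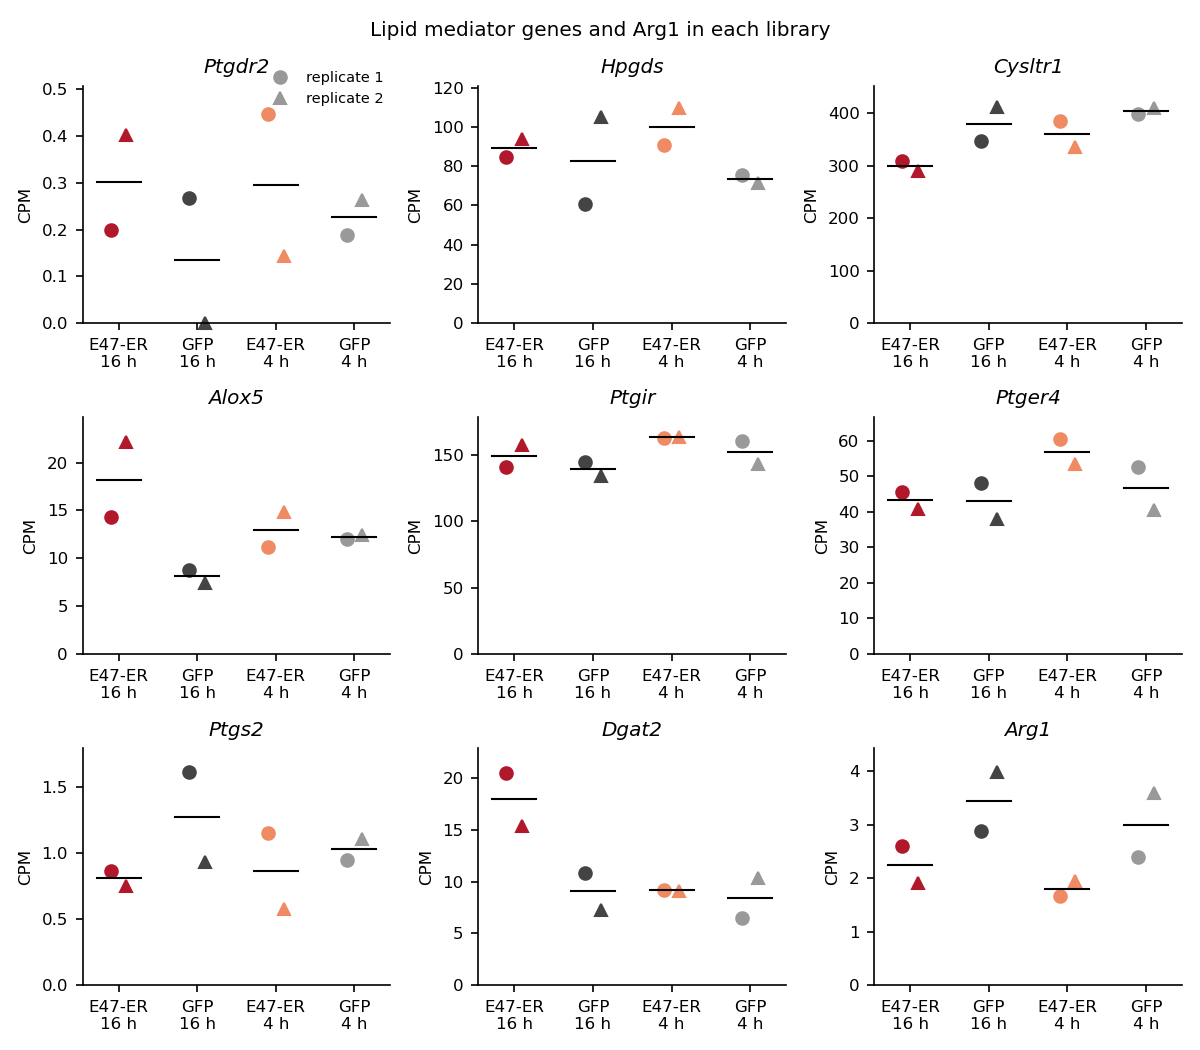
CPM of each of the 9 genes in each library, 1 panel a gene, with circles for replicate 1, triangles for replicate 2 and lines for group means. Alox5 and Dgat2 have both E47-ER 16 h libraries above both GFP 16 h libraries, and Cysltr1, Ptgs2 and Arg1 have them below.

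Among the leukotriene genes, Alox5 had the smallest p of the 8 tested members at 16 h. Alox5 (ENSMUSG00000025701, chr6:116410077-116461178, minus strand, GRCm38) had 14.3 and 22.2 CPM in E47-ER cells at 16 h, against 8.79 and 7.44 CPM in GFP cells at 16 h. It had 11.2 and 14.8 CPM in E47-ER cells at 4 h, against 12.1 and 12.5 CPM in GFP cells at 4 h. Both E47-ER libraries were above both GFP libraries at 16 h, with E47-ER replicate 2 the highest of the 8, and the groups overlapped at 4 h. The log2 difference at 16 h was 1.16 (SE 0.254, 95% interval 0.57 to 1.74), a fold of 2.23. With edgeR's quasi-likelihood test its adjusted p was 0.0760, so it was not called. DESeq2 gave 1.15 with an adjusted p of 0.00427. At 4 h the log2 difference was 0.08 (SE 0.243, 95% interval -0.48 to 0.64). The difference between the 2 effects, 16 h minus 4 h, was 1.07 (95% interval 0.27 to 1.88, adjusted p = 0.699).

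For Alox5 the times overlapped in E47-ER cells and did not in GFP cells. E47-ER cells averaged 18.2 ± 5.60 CPM at 16 h and 13.0 ± 2.56 CPM at 4 h, and GFP cells averaged 8.12 ± 0.951 CPM at 16 h and 12.3 ± 0.279 CPM at 4 h (SD, n = 2 each). The log2 difference of 16 h over 4 h was 0.49 in E47-ER cells (adjusted p = 0.997) and -0.58 in GFP cells (adjusted p = 0.4998). Without GFP 16 h replicate 2 the effect at 16 h was 1.05 with an adjusted p of 0.0120, where 8.92% of all genes were called, and without GFP 16 h replicate 1 it was 1.32 with an adjusted p of 0.00130, where 48.6% were. The other 6 fits with 1 library left out did not call it, with adjusted p-values of 0.115 to 0.574, and without E47-ER 16 h replicate 2, the highest library, it was 0.81. Where 1 library of a group remains, that library is assumed to vary as the other groups do. With transcript length in the model the value was 1.11 (adjusted p = 0.0590). Without GFP 16 h replicate 1, the difference between the effects at the 2 times was called for 3 members, at 1.24 for Alox5 (adjusted p = 0.0113), 1.21 for Dgat2 (adjusted p = 0.0129) and -0.65 for Hpgds (adjusted p = 0.00195), where 35.5% of all genes were called.

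The promoters of Alox5 and of Hpgds are shown because E proteins such as E47 bind the E-box CANNTG, and these are the members for leukotriene synthesis and for prostaglandin D2 synthesis. Each window runs from 250 bases before to 50 bases after the gene's start (RefSeq, GRCm38.p6, minus strand), written 5′ to 3′ with CANNTG in capitals. The Alox5 window is chr6:116461129-116461428 and the Hpgds window is chr6:65144681-65144980.
Alox5: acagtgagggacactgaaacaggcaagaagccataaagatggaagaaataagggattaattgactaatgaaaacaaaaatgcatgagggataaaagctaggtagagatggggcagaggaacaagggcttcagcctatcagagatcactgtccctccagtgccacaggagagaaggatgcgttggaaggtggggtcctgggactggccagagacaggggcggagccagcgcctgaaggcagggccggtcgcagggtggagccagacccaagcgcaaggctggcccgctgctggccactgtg
Hpgds: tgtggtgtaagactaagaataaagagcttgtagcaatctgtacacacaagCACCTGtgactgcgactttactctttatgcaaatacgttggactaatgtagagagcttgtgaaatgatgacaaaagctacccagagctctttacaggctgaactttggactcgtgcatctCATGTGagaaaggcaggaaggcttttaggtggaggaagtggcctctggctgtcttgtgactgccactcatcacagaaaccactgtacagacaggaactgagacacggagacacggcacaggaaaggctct
The Hpgds window holds 2 such motifs, CACCTG 200 bases and CATGTG 80 bases before the start, and the Alox5 window holds 0. The start in the Hpgds window, base 65144730, lies 178 bases inside the gene as GENCODE annotates it, so the CATGTG falls within the annotated gene and the CACCTG before it. For Alox5 both annotations give the same start. CANNTG is its own reverse complement, so a search of 1 strand covers both. It occurs in 72.3% of 32851 promoter windows of this length, and CAGGTG or CACCTG in 20.2%. Of the other members, Ptgs2 holds 3 and Ptgir 1, Ptger4 and Ptgdr2 hold 0, and Dgat2, Cysltr1 and Arg1 were not matched.

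Cysltr1 (ENSMUSG00000052821, chrX:106574346-106603679, minus strand), the first receptor for cysteinyl leukotrienes, was the most abundant member per length. It had 308.8 and 289.5 CPM in E47-ER cells at 16 h, against 345.8 and 411.9 CPM in GFP cells at 16 h. At 4 h it had 384.5 and 336.2 CPM in E47-ER cells, against 397.9 and 409.7 CPM in GFP cells. All 4 E47-ER libraries were below the GFP libraries of their own time. Its log2 difference was -0.34 at 16 h (SE 0.142, 95% interval -0.67 to -0.01, adjusted p = 0.196) and -0.16 at 4 h (95% interval -0.49 to 0.16), and neither was called by edgeR's quasi-likelihood test. Leaving out GFP 16 h replicate 1, the value at 16 h was -0.44 with an adjusted p of 0.000704, where 48.6% of all genes were called, and leaving out GFP 16 h replicate 2 it was -0.22 (adjusted p = 0.194). The 4 h value ranged between -0.27 and -0.0731 with 1 library left out.

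The other genes of leukotriene synthesis were read from a list of 10 genes, of which 8 were tested. At 16 h 0 of the 8 were called, 2 had an unadjusted p under 0.05 and DESeq2 called 1, Alox5 itself. The median log2 difference of the list was 0.41 at 16 h and 0.07 at 4 h, against -0.0057 and -0.0043 over all genes tested. At 16 h that median was 0.57 without GFP 16 h replicate 2 and 0.46 without GFP 16 h replicate 1. Mgst2 was 1.58 and 0.14 at 16 h in those fits, and Ggt5 was -0.18 and 0.97. Alox5ap, the gene of the protein that presents arachidonic acid to 5-lipoxygenase, was singled out after its values were seen. It had 8.93 ± 1.22 CPM in E47-ER cells and 5.11 ± 0.863 CPM in GFP cells at 16 h (SD, n = 2 each), a log2 difference of 0.83 (adjusted p = 0.132). The value was 0.99 without GFP 16 h replicate 2 (adjusted p = 0.0191) and 0.67 without GFP 16 h replicate 1 (adjusted p = 0.0600). It shares 189 exonic bases with a gene on the opposite strand, and the strand setting of the counting is not given. Of 4 tested receptor genes in a list of 7, 0 were called at 16 h, with 1 at an unadjusted p under 0.05 (Cysltr1) and 0 by DESeq2. Their median log2 difference was -0.23 at 16 h and -0.09 at 4 h, and at 16 h it was -0.0230 without GFP 16 h replicate 2 and -0.22 without GFP 16 h replicate 1. Cysltr1 was -0.22 and -0.44 at 16 h in those fits, and Ltb4r1 was 0.17 and -0.36. Cysltr2, the second receptor for cysteinyl leukotrienes, had 41.2 ± 8.09 CPM in E47-ER cells and 32.4 ± 6.63 CPM in GFP cells at 16 h (SD, n = 2 each), which was not called with all libraries. Its log2 difference was 0.57 without GFP 16 h replicate 2 (adjusted p = 0.0348) and 0.18 without GFP 16 h replicate 1 (adjusted p = 0.415). Of 6 further lipoxygenase genes, 1 (Alox8) was tested and was not called.

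Among the prostanoid genes, the synthase Hpgds had a wide gap between the 2 GFP libraries at 16 h. Hpgds (ENSMUSG00000029919, chr6:65117293-65144908, minus strand) had 84.5 and 93.9 CPM in E47-ER cells at 16 h, against 60.5 and 105 CPM in GFP cells at 16 h. It had 90.6 and 109.5 CPM in E47-ER cells at 4 h, against 75.6 and 71.4 CPM in GFP cells at 4 h. The groups overlapped at 16 h, where GFP replicate 2, the library that stands apart, was the highest of the 4, and they did not overlap at 4 h. On the log2 scale the difference was 0.11 at 16 h (SE 0.241, 95% interval -0.44 to 0.67, adjusted p = 0.776) and 0.44 at 4 h (SE 0.240, 95% interval -0.11 to 0.997, adjusted p = 0.990), and edgeR called neither. With transcript length in the model the value at 16 h was -0.07.

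At 16 h Hpgds depended on which GFP 16 h library was in the fit, and at 4 h its value was alike whichever was left out. Leaving out GFP 16 h replicate 2, it was called at both times, with a log2 difference of 0.55 at 16 h (adjusted p = 0.00467) and 0.45 at 4 h (adjusted p = 0.00607). Without GFP 16 h replicate 1 the value at 16 h was -0.21 (adjusted p = 0.153) and at 4 h 0.44 (adjusted p = 0.00700). The SE at 4 h was 0.0958 and 0.0964 in those fits, against 0.240 with all libraries. Of all genes, 4.33% and 4.29% were called at 4 h in those fits. In GFP cells Hpgds was also called between 16 h and 4 h without GFP 16 h replicate 1, at 0.49 (adjusted p = 0.00212), where 41.8% of all genes were called.

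**Figure D3:**
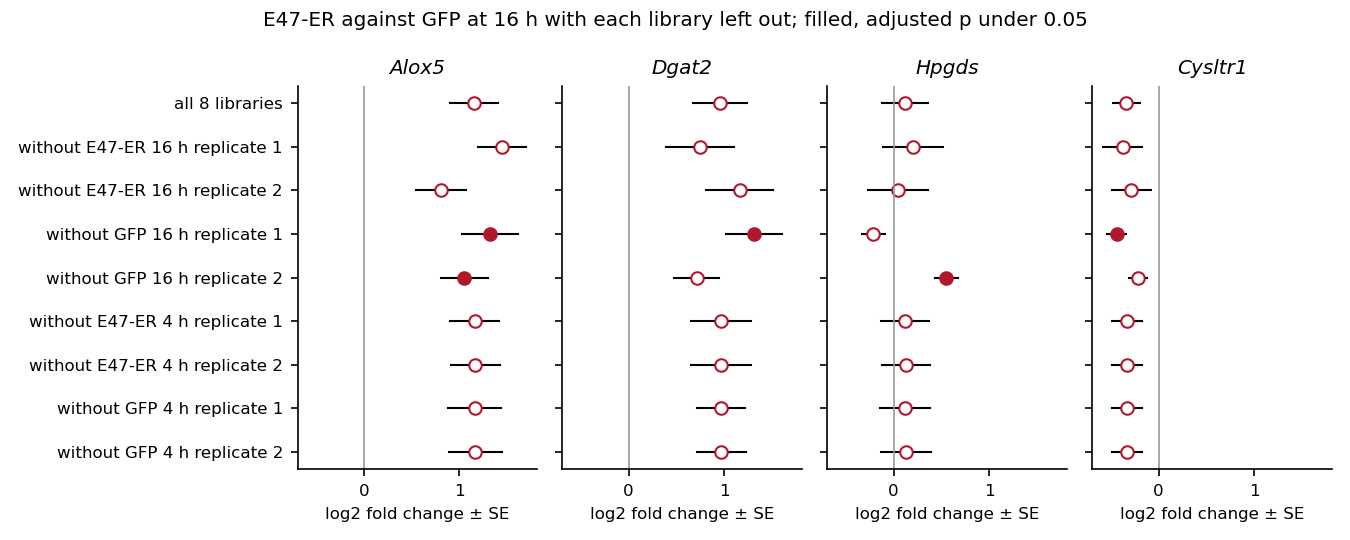
Log2 difference of E47-ER over GFP at 16 h (points, with bars of 1 SE) for Alox5, Dgat2, Hpgds and Cysltr1, with all 8 libraries and with each left out in turn, filled where the adjusted p was under 0.05. For Hpgds the value is 0.55 without GFP 16 h replicate 2 and -0.21 without GFP 16 h replicate 1, while Alox5 stays above 0 in each fit.

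Ptgs2 (ENSMUSG00000032487, chr1:150100031-150108227, plus strand), which encodes COX-2, was low, with 119 counts over the 8 libraries. It had 0.867 and 0.749 CPM in E47-ER cells at 16 h, against 1.61 and 0.930 CPM in GFP cells at 16 h. At 4 h it had 1.15 and 0.575 CPM in E47-ER cells, against 0.947 and 1.11 CPM in GFP cells. The groups did not overlap at 16 h and overlapped at 4 h. For Ptgs2 the log2 difference was -0.72 at 16 h (SE 0.465, 95% interval -1.79 to 0.35, adjusted p = 0.351) and -0.24 at 4 h (95% interval -1.29 to 0.81), with edgeR calling neither. Its value at 16 h was -1.0 without GFP 16 h replicate 2 and -0.19 without GFP 16 h replicate 1. Of 13 genes of prostanoid synthesis, 9 were tested and 0 called at 16 h, with 2 at an unadjusted p under 0.05 and 0 by DESeq2, and their median log2 difference was 0.05. That median was -0.0949 without GFP 16 h replicate 2 and -0.19 without GFP 16 h replicate 1. In those fits Pla2g6 was 0.30 and 0.94 at 16 h, and Ptges3 was -0.22 and -0.54. Ptgs1, with 88 counts over the 8 libraries, was 0.45 (SE 0.657) and 7.05 (SE 2.23). It had 1.10 ± 0.324 CPM in E47-ER cells and 0.403 ± 0.569 CPM in GFP cells at 16 h (SD, n = 2 each). GFP 16 h replicate 2 had no Ptgs1 counts, so the 7.05 does not measure a fold. Ptges, a prostaglandin E synthase, had a log2 difference of 0.51 at 16 h with all libraries (edgeR, adjusted p = 0.228). Its value at 16 h was 0.93 without replicate 2 and 0.19 without replicate 1, and at 4 h it was 0.57 in both fits. Of 5 genes of prostanoid breakdown and transport, 3 were tested and 0 called at 16 h. Of the 3, 0 had an unadjusted p under 0.05 and DESeq2 called 0. Abcc4 was -0.13 at 16 h without GFP 16 h replicate 2 and 0.94 without GFP 16 h replicate 1.

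Of the 3 prostanoid receptors among the members, Ptgdr2 was near the floor and the other two were not called. Ptgdr2 (ENSMUSG00000034117, chr19:10937160-10942511, plus strand), the prostaglandin D2 receptor CRTH2 by which ILC2 are often recognised, had 3 and 7 counts in E47-ER cells and 4 and 0 counts in GFP cells at 16 h. It had 7 and 2 counts in E47-ER cells and 3 and 5 counts in GFP cells at 4 h. With 31 counts over the 8 libraries the gene did not pass the filter on low counts. In a fit with no filter its log2 difference was 0.86 at 16 h (SE 1.06, adjusted p = 0.828) and 0.37 at 4 h (SE 0.941), and neither was called. The 0 in GFP 16 h replicate 2 allows a level of up to 0.399 CPM, against a highest level of 0.447 CPM in the other libraries. This limit covers counting error only. Its transcript shares 1031 exonic bases with Ccdc86 on the opposite strand.

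Ptgir (ENSMUSG00000043017, chr7:16906490-16910905, plus strand), the prostacyclin receptor, had 140.9 and 157.5 CPM in E47-ER cells at 16 h, against 144.2 and 134.2 CPM in GFP cells at 16 h. At 4 h it had 162.2 and 163.6 CPM in E47-ER cells, against 160.5 and 143 CPM in GFP cells. The groups overlapped at 16 h and did not at 4 h. Ptgir had a log2 difference of 0.10 at 16 h (95% interval -0.20 to 0.40) and of 0.10 at 4 h (95% interval -0.19 to 0.40). Neither was called by edgeR's quasi-likelihood test, with adjusted p-values of 0.635 and 0.9999, and with 1 library left out the value ranged between 0.0241 and 0.19 at 16 h.

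Ptger4 (ENSMUSG00000039942, chr15:5206661-5244187, minus strand), the EP4 receptor, had 45.7 and 40.9 CPM in E47-ER cells at 16 h, against 48.0 and 37.9 CPM in GFP cells at 16 h. At 4 h it had 60.6 and 53.3 CPM in E47-ER cells, against 52.6 and 40.5 CPM in GFP cells. The groups overlapped at 16 h and did not at 4 h. Its log2 difference was 0.0057 at 16 h (95% interval -0.41 to 0.42) and 0.29 at 4 h (95% interval -0.12 to 0.70), and with transcript length in the model it was -0.15 at 16 h. Within E47-ER cells the log2 difference of 16 h over 4 h was -0.40 (adjusted p = 0.997), which was not called. Its exons share bases with Ttc33 and a pseudogene on the opposite strand.

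Of 9 prostanoid receptor genes 6 were tested, and 1 was called at 16 h: Tbxa2r, the thromboxane receptor, was higher in E47-ER cells. It had 5.92 ± 1.58 CPM in E47-ER cells and 1.37 ± 0.245 CPM in GFP cells at 16 h, with 3.68 ± 0.222 CPM in E47-ER cells and 1.34 ± 0.115 CPM in GFP cells at 4 h (SD, n = 2 each). That log2 difference was 2.07 at 16 h (adjusted p = 0.0197) and 1.44 at 4 h (adjusted p = 0.178), and DESeq2 called it at 16 h. The call held in 2 of 8 fits with 1 library left out, those without either GFP 16 h library, and the values ranged between 1.78 and 2.33, with adjusted p-values of 0.000189 to 0.228. At 4 h Tbxa2r was 1.45 without GFP 16 h replicate 2 and 1.44 without GFP 16 h replicate 1. At 16 h Ptger2, another receptor for prostaglandin E2, was 0.72 and 0.31 in those fits, and Ptger3 was -0.28 and -0.36. The median log2 difference of the list was 0.27 at 16 h and 0.28 at 4 h. Among 16 tested genes of 16 of cyclic AMP signalling, the route of Ptgir and Ptger4, 1 was called at 16 h: Prkacb, a catalytic subunit of protein kinase A, was higher, with 189 ± 5.07 CPM in E47-ER cells and 100.9 ± 17.7 CPM in GFP cells (SD, n = 2 each). Its log2 difference was 0.91 (adjusted p = 0.0271), and the call held in 2 of 8 fits with 1 library left out, those without either GFP 16 h library, with adjusted p-values of up to 0.311 in the others. At 4 h Prkacb had 179 ± 4.91 CPM in E47-ER cells and 117 ± 6.38 CPM in GFP cells (SD, n = 2 each). Its log2 difference at 4 h was 0.62 (edgeR, adjusted p = 0.297), and DESeq2 called it at both times. The median of that list was 0.18 at 16 h and -0.12 at 4 h. At 16 h that median was 0.0912 without GFP 16 h replicate 2 and 0.49 without GFP 16 h replicate 1. Prkar2b was -0.54 at 16 h without replicate 2 and 0.196 without replicate 1. Each of these fits rests on 1 GFP 16 h library, so calls in them do not set the list apart from other genes. At 4 h both fits called Prkacb higher and Pde3b and Prkar2b lower.

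**Figure D4:**
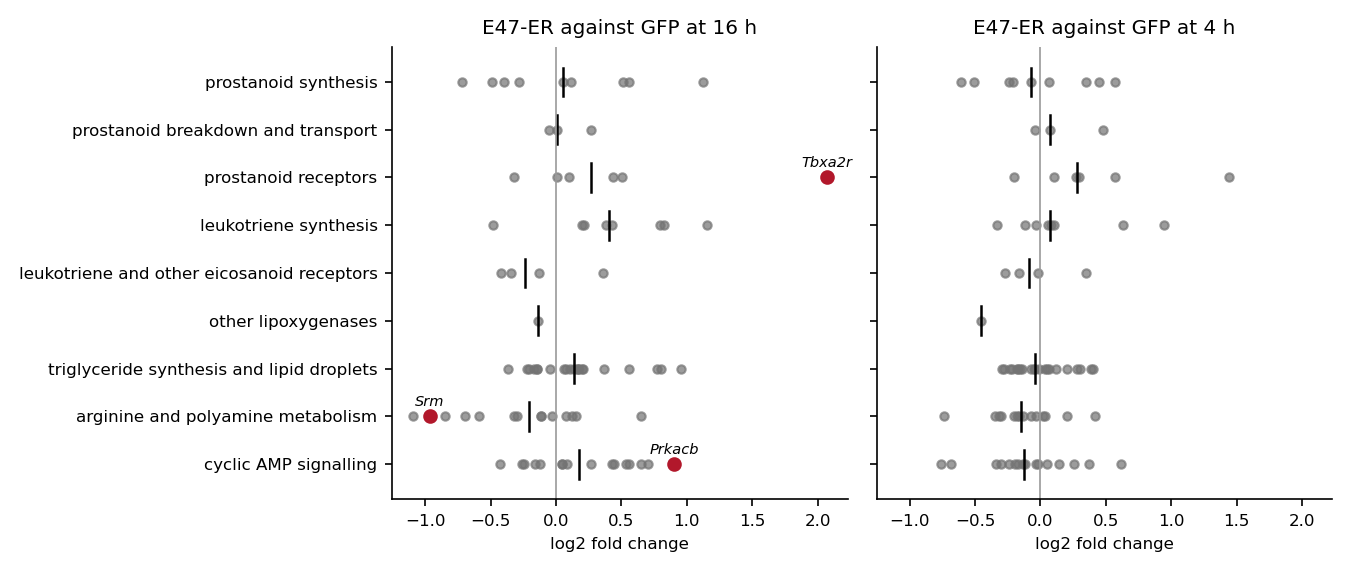
Log2 difference of E47-ER over GFP for the genes of each pathway list at 16 h and 4 h, with points for genes, black lines for list medians and the called genes named in red. Tbxa2r and Prkacb are called above 0 and Srm below 0 at 16 h.

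Dgat2 (ENSMUSG00000030747, chr7:99153658-99182719, minus strand), the enzyme of the last step of triglyceride synthesis, had the second smallest p at 16 h. It had 20.5 and 15.4 CPM in E47-ER cells at 16 h, against 10.9 and 7.31 CPM in GFP cells at 16 h. At 4 h it had 9.20 and 9.13 CPM in E47-ER cells, against 6.44 and 10.4 CPM in GFP cells. Both E47-ER libraries at 16 h were above all 6 other libraries. For Dgat2 the log2 difference was 0.95 at 16 h (SE 0.285, 95% interval 0.30 to 1.61, adjusted p = 0.134), a fold of 1.94, and 0.12 at 4 h (95% interval -0.54 to 0.77) by edgeR's quasi-likelihood test. DESeq2 called it at 16 h, with an adjusted p of 0.0397. Within E47-ER cells the log2 difference of 16 h over 4 h was 0.97 (SE 0.280, adjusted p = 0.929), the smallest p of the 8 members there, and within GFP cells it was 0.13. Without GFP 16 h replicate 1 and without replicate 2 it was called within E47-ER cells, at 0.97 (adjusted p = 0.0108) and 0.95 (adjusted p = 0.0129), where 3.05% and 3.08% of all genes were. With GFP 16 h replicate 2 left out the effect at 16 h was 0.71, and without GFP 16 h replicate 1 it was 1.31. The difference between the effects at 16 h and at 4 h was 0.84 (adjusted p = 0.699). Of 24 genes of triglyceride synthesis and lipid droplets, Dgat2 among them, 21 were tested and 0 called at 16 h. The list had 4 at an unadjusted p under 0.05 and 2 by DESeq2, Cpt1a and Dgat2, with a median log2 difference of 0.14 at 16 h and -0.0436 at 4 h. That median at 16 h was 0.11 without GFP 16 h replicate 2 and 0.14 without GFP 16 h replicate 1. Cpt1a was 0.42 and 1.35 at 16 h in those fits. At 4 h Mgll was 0.39 and 0.38, and Acsl4 was -0.29 and -0.30.

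**Figure D5:**
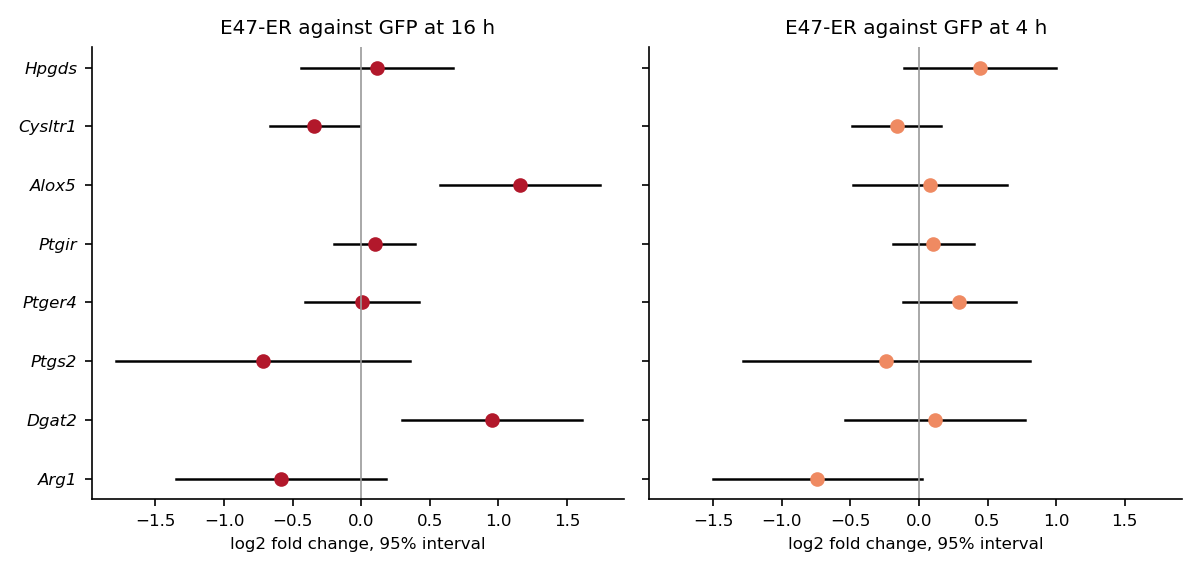
Log2 difference of E47-ER over GFP with its 95% interval for the 8 tested genes at 16 h and at 4 h. The intervals of Alox5, Dgat2 and Cysltr1 exclude 0 at 16 h before adjustment and none of the 8 is called after it.

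Arg1 (ENSMUSG00000019987, chr10:24915221-24927484, minus strand), arginase 1, was low throughout, with 304 counts over the 8 libraries. It had 2.60 and 1.90 CPM in E47-ER cells at 16 h, against 2.89 and 3.99 CPM in GFP cells at 16 h. At 4 h it had 1.66 and 1.94 CPM in E47-ER cells, against 2.40 and 3.59 CPM in GFP cells. Both E47-ER libraries lay below both GFP libraries at each time. Its log2 difference was -0.58 at 16 h (SE 0.334, 95% interval -1.35 to 0.18, adjusted p = 0.299) and -0.74 at 4 h (SE 0.332, 95% interval -1.51 to 0.02, adjusted p = 0.879), which edgeR's quasi-likelihood test did not call. With 1 library left out the value ranged between -0.81 and -0.37 at 16 h, where it was -0.37 without GFP 16 h replicate 2 and -0.81 without GFP 16 h replicate 1, and between -0.99 and -0.42 at 4 h, and it was called in none of these 8 fits. Of 19 genes of arginine and polyamine metabolism, 14 were tested and 1 was called at 16 h, with Srm, spermidine synthase, lower. Srm had 41.2 ± 3.90 CPM in E47-ER cells and 80.2 ± 0.677 CPM in GFP cells at 16 h (SD, n = 2 each), a log2 difference of -0.96 (adjusted p = 0.0240). The call held in 2 of 8 fits with 1 library left out, those without either GFP 16 h library, and with transcript length in the model the value was -0.77 (adjusted p = 0.0613). In the other fits with 1 library left out its adjusted p was up to 0.332. DESeq2 called Srm and Sms, both lower. The list's median log2 difference was -0.21 at 16 h and -0.15 at 4 h, and at 16 h it was -0.12 without GFP 16 h replicate 2 and -0.20 without GFP 16 h replicate 1. At 16 h Sat1 was 0.38 without replicate 2 and -1.29 without replicate 1, and Slc7a1 was -0.48 and 0.40. Sms was -0.60 and -1.47 in those fits, and Srm was -0.98 and -0.93. At 4 h Ass1 was -0.32 in both fits.

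Between the times, edgeR called 0 of 8 members for the difference between the E47-ER effects, against 0% of all genes, with 1 of 8 (Alox5) at an unadjusted p under 0.05 against 4.92%, and DESeq2 called 0. Within E47-ER cells, 16 h against 4 h, edgeR called 0 of 8, against 0.0147% of all genes, with 1 of 8 (Dgat2) at an unadjusted p under 0.05 against 5.09%, and DESeq2 called 0. Within GFP cells edgeR called 0 of 8, against 0% of all genes, with 0 of 8 at an unadjusted p under 0.05 against 9.07%, and DESeq2 called 0. These comparisons share libraries with the comparisons at each time. In E47-ER cells 4 of 8 members did not overlap between the times, against 50.3% of all genes, and in GFP cells 1 of 8, Alox5, against 36.6%.

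Alox5, Cysltr1, Ptgs2 and Arg1 are also expressed by myeloid cells, so the markers of those cells are given beside them. Of 12 macrophage and monocyte markers, 11 had counts and C1qa had 0, and their sum was 1145 to 1168 CPM in E47-ER cells and 569 to 724 CPM in GFP cells at 16 h, with 1038 to 1104 in E47-ER cells and 665 to 713 in GFP cells at 4 h. Ccr2, also expressed by lymphocytes, made up most of that sum, and Lyz2 had 2 counts over the 8 libraries. The 5 tested markers of that list all had a positive log2 difference at 16 h, with a median of 0.79. Of them 3 had an unadjusted p under 0.05 by edgeR, against 24% of all genes. Ccr2 was called higher at 16 h by edgeR, at 0.84 (adjusted p = 0.042), and ranged from 0.69 to 1.03 with 1 library left out. With transcript length in the edgeR model Ccr2 was 0.66 (adjusted p = 0.1) and was not called. With a term for replicate number within each time its adjusted p was 0.151. Cd68 had 17.4 ± 3.54 CPM in E47-ER cells and 10.6 ± 1.06 CPM in GFP cells at 16 h (SD, n = 2 each). At 4 h 4 of the 5 were positive, with a median of 0.59. Of 10 mast cell and basophil markers, Fcer1a, Mrgprb1, Prss34 and Tpsb2 had 0 counts. The sum was 155.5 to 201 CPM in E47-ER cells and 168 to 308 CPM in GFP cells at 16 h. At 4 h it was 229 to 265 in E47-ER cells and 222.5 to 223 in GFP cells. Most of it was Kit, with 152 ± 27.9 CPM in E47-ER cells and 152.5 ± 31.9 CPM in GFP cells at 16 h, and Mcpt8. Mcpt8 had 25.6 ± 4.00 CPM in E47-ER cells and 84.7 ± 67.1 CPM in GFP cells at 16 h (SD, n = 2 each). DESeq2 called Mcpt8 lower at 16 h and edgeR did not. The log2 difference of Mcpt8 at 16 h was -0.54 without GFP 16 h replicate 2 and -2.34 without GFP 16 h replicate 1. Of 6 neutrophil markers, S100a9, Elane and Retnlg had 0 counts. The sum was 10.7 to 12.5 CPM in E47-ER cells and 19.1 to 81.3 CPM in GFP cells at 16 h. At 4 h it was 13.9 to 20.5 in E47-ER cells and 23.6 to 35.3 in GFP cells. Most of it was Ly6g, with 11.5 ± 1.31 CPM in E47-ER cells and 50.2 ± 44.0 CPM in GFP cells at 16 h (SD, n = 2 each). DESeq2 called Ly6g lower at 16 h and edgeR did not. The log2 difference of Ly6g at 16 h was -0.73 without GFP 16 h replicate 2 and -2.79 without GFP 16 h replicate 1. Of 6 eosinophil markers, Ear1 and Ear2 had 0 counts, and the sum was 4.27 to 4.74 CPM in E47-ER cells and 3.35 to 4.79 CPM in GFP cells at 16 h, with 3.38 to 4.60 in E47-ER cells and 4.22 to 4.55 in GFP cells at 4 h. T cell markers, 8 genes with 3 above 1 CPM, summed to 43.4 to 48.9 CPM in E47-ER cells and 32.1 to 38.5 CPM in GFP cells at 16 h, with 37.4 to 37.5 in E47-ER cells and 33.7 to 37.7 in GFP cells at 4 h. Of 4 thymic epithelial markers Foxn1 had 0 counts, and the sum, mostly of Epcam, was 20.7 to 22.6 CPM in E47-ER cells and 5.97 to 9.04 CPM in GFP cells at 16 h, with 10.3 to 13.8 in E47-ER cells and 5.12 to 7.07 in GFP cells at 4 h. Epcam was called higher at 16 h by edgeR, at 1.56 (adjusted p = 0.0285), and by DESeq2. It ranged from 1.30 to 1.82 with 1 library left out. With a term for replicate number within each time its adjusted p was 0.0657. At 4 h Epcam was 0.97 (edgeR, adjusted p = 0.394) and was not called. The part of other cells in the members' values was not tested.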

How the data were processed

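Bulk RNA was sequenced from 8 libraries, 2 in each of 4 groups taken from the sample titles and transduction labels. The authors deposited 1 table of raw counts per gene (Ensembl IDs, 50686 genes, whole numbers), and no column was left unmapped. The submitters' processing notes name the mm10 build and DESeq2, with no version or role. Not given in the sources used here were the aligner, the counter, the annotation and the strand setting, and the labels give no batch. Symbols, positions and transcript lengths came from GENCODE M21 on GRCm38, which gave a symbol to 50462 IDs.

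Genes kept by edgeR's filter at a minimum count of 10 (13644 of 50686) were scaled by TMM and fitted with 1 mean per group and 1 shared spread over the 8 libraries. Contrasts were tested with edgeR's quasi-likelihood test, with Benjamini-Hochberg adjustment over all genes tested and a call at an adjusted p under 0.05. Intervals are 95% intervals of the fit. CPM values use the TMM-scaled totals, and the floor is 3 counts in a library. Depth of 8813782 to 18677675 counts leaves members under 1 CPM with few counts, and intervals and floors cover the spread or the counting error given, not PCR duplicates. DESeq2, other scalings and filters, length offsets, replicate blocks and each library left out were tried. The scripts were tested on simulated data. All 9 members were named. From each pathway list, called genes were named, at most 4 a comparison. The rule for genes most like a called member named none. Members and lists were chosen with earlier results of these data known. Versions were R 4.3.3, edgeR 4.0.16, DESeq2 1.42.0, Python 3.11.15 and matplotlib 3.10.9.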

Additional observations from a re-analysis of the deposited data

How the results depend on the processing

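Depth and 2 libraries a group limit what could be called, and 1 library decides part of it. Members called at 16 h (0 of 8) became 1 at an adjusted p under 0.1, 2 with no filter on low counts and 2 by DESeq2, and 0 to 3 with 1 library left out. At 4 h leaving out 1 library gave 0 to 1, for the difference of effects 0 to 3, for 16 h against 4 h 0 to 1 in E47-ER cells and 0 to 1 in GFP cells. No filter on low counts gave 1 member for time in E47-ER cells, where it called 0.177% of all genes. At 16 h it called 6.07% of all genes, and DESeq2 called 7.72%. The share of all genes at an adjusted p under 0.1 is not given here. Fits with 1 library left out rest on 1 library in a group, so their counts do not set the members apart from other genes. In the replicate block fits 0 members were called in any comparison. The labels do not pair the libraries, and deviations of same-numbered libraries correlated between -0.0901 and 0.202. With a block within each time Tbxa2r, Srm and Prkacb had adjusted p-values of 0.0905, 0.0812 and 0.114.

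Over all genes, the 217 called at 16 h became 1816 with no filter, 1053 by DESeq2, 54 with a replicate block within each time, and 15 to 7022 with 1 library left out. The 39 called at 4 h became 165, 121, 11 and 1 to 619 under those settings, and 19 with library totals only. The 0 for the difference became 53 with no filter and 0 to 5124 with 1 library left out. The 2 for time in E47-ER cells became 53 with no filter, 24 by DESeq2, 0 with either block and 0 to 440 with 1 library left out, and the 0 in GFP cells became 305 with no filter and 0 to 6034 with 1 library left out. The upper ends came without GFP 16 h replicate 1 in each case. Length offsets gave 204 higher and 103 lower at 16 h, against 171 and 46.

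Signs turned for the values below, and with all libraries no member was called, so each of them was uncalled there. For Hpgds an end of the range was called at 16 h, for the difference and for time in GFP cells. With length offsets Hpgds at 16 h was -0.0718, Ptger4 at 16 h -0.15, the Ptgir difference 0.0025 and Ptger4 for time in GFP cells 0.0048. The Ptgir difference was 0.12 with library totals only and 0.0712 with no filter. With 1 library left out the log2 values ranged at 16 h from -0.16 to 0.21 for Ptger4 and -0.21 to 0.55 for Hpgds, and at 4 h from -0.13 to 0.27 for Alox5, -0.83 to 0.16 for Ptgs2 and -0.18 to 0.51 for Dgat2. For the difference they ranged from -0.0818 to 0.0914 for Ptgir, -0.16 to 0.41 for Arg1, -0.86 to 0.13 for Ptgs2 and -0.65 to 0.11 for Hpgds. For time in E47-ER cells Ptgs2 ranged from -0.51 to 0.48. In GFP cells the ranges were -0.23 to 0.0059 for Cysltr1, -0.17 to 0.64 for Ptgs2, -0.24 to 0.51 for Dgat2, -0.28 to 0.49 for Hpgds, -0.32 to 0.0816 for Ptger4 and -0.10 to 0.47 for Arg1. The cause was not tested.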
